A study of Bos taurus with 28 samples.

Results

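Cell division and DNA replication genes were followed in bovine subcutaneous adipose tissue (AT) around calving. They are the rows of the deposited count tables whose Ensembl identifier is paired with a symbol of a cell cycle or DNA replication gene family, such as CDC, CDK, KIF, ORC, POL, RAD, ANAPC or AURK, and which have at least 3 reads in at least 1 library. The rule found 49 genes among the 1864 genes with a usable symbol in the copy of the symbol table used here, which is shortened, and among 24616 genes in the tables. All 49 had enough reads to be tested in each comparison. Beyond that minimum the rule works on names and used no difference between time points, so other genes of these families in the tables may carry no symbol here, and the rule also takes in relatives that do not serve cell division.

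RNA-seq libraries were made from biopsies of the right flank of healthy multiparous Holstein cows, each library from 1 biopsy of 1 animal. There were 9 libraries before calving (PreP, about day -11), 10 at about day 6 after calving (PP1) and 9 at about day 13 (PP2), from 11 cows. These days are means from the paper and varied between cows, and PreP was timed by the expected calving date. Of these cows, 8 were sampled each time, 1 gave samples at PP1 and PP2, and the remaining 2 gave a single sample, taken at PreP and at PP1 respectively. The sample labels name adipose tissue and hold 11 cow identifiers, while the design text of the series also names mammary glands and gives 12. The cows were pregnant and not lactating at selection and in early lactation at PP1 and PP2, with no treatment and no untreated control group. They were fed a close-up diet before calving and a fresh diet after it. Each further biopsy came from the same flank at a shifted site. Calving, the start of lactation, the change of diet, the earlier biopsies and the passing of time can therefore not be told apart.

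A cell that divides first copies its DNA in S phase and then separates the copies in mitosis. The origin recognition complex marks where copying starts, DNA polymerases carry it out, and kinases, kinesins and kinetochore proteins then pull the chromosomes apart. Transcripts of many of these genes are made mainly while a cell passes through S, G2 or M phase, so in a tissue they follow the presence of dividing cells, whereas other members of the same families work in resting cells as well. In AT, mature adipocytes do not normally divide, and macrophages, preadipocytes, fibroblasts and endothelial cells can. In these bulk samples, fewer cells of a type and less RNA per cell cannot be told apart.

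The libraries held 15293154 to 22284884 counts each, and the medians were 18829070 at PreP, 19008054.5 at PP1 and 20134716 at PP2. Values are given as CPM, read counts scaled by library size and TMM factors, and 3 reads corresponded to 0.127 to 0.200 CPM. CPM of different genes are not compared, because gene length was not corrected for. Of the 16 adipocyte genes listed, PCK1 and PPARG have an identifier, and both were detected in every library. Over the 37 members that are not counted as cycling below, 4 libraries stood apart, with a median absolute deviation from the gene medians of 0.64 (PreP, cow B5176), 1.21 (PP2, cow B4886), 1.12 (PP2, cow B5064) and 0.60 (PP2, cow B5090) on the log2 scale. In the other 24 libraries it lay between 0.18 and 0.43. The PP2 library of cow B5090 also had 8240 summed CPM of the skeletal muscle genes PYGM and LMOD2, against 0.35 to 3.14 in all other libraries. Both were higher DEGs at PP2 against PreP, with log2 fold changes of 8.55 and 9.70 and FDR of 0.0174 and 0.0196. Without that library the changes were -0.17 and -1.13, with FDR of 0.869 and 0.449. Where a call of a gene described in full, or of a marker gene, changed or turned without these 4 libraries, both values are given with the result or among the processing alternatives.

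After calving, a few of the 49 genes were called higher, in numbers not far from the share over all genes. Most of the others were not distinguishable from PreP. At PP1 the DEGs, genes with a Benjamini-Hochberg adjusted p (FDR) under 0.05 in edgeR's quasi-likelihood test and an absolute log2 fold change over 1, were AURKB, CDCA2 and KIFC1, all higher. These are 3 of 49 members, where 3.34% of the 18467 genes tested were DEGs in this direction. None of the 49 was a lower DEG, a class that held 0.693% of all genes tested, and DESeq2 and limma voom called none either. At PP2 the only DEG was AURKB, again higher, where 3.52% of the 18558 genes tested were higher DEGs and 1.95% were lower ones. A fit with cow as a block, limited to cows with both samples, called only CKAP2L at PP1 and no member at PP2. Between PP2 and PP1 there was no DEG among the members or among all 18518 genes tested, 0.0%, and no alternative fit, DESeq2 and limma voom included, called a member. At an unadjusted p under 0.05, 0 members were higher and 1 was lower at PP2 than at PP1, where 3.62% and 1.98% of all genes were. The comparisons of PP1 and PP2 with PreP share their PreP libraries, so that their values are given side by side and not as independent results. In simulated counts, 113 of 200 log2 changes of 1 were recovered at PP1 against PreP. Only 21 were recovered at PP2 against PreP and 34 at PP2 against PP1. Few or no DEGs in the comparisons with PP2 therefore cannot be read as an absence of changes of that size.

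**Figure D1:**
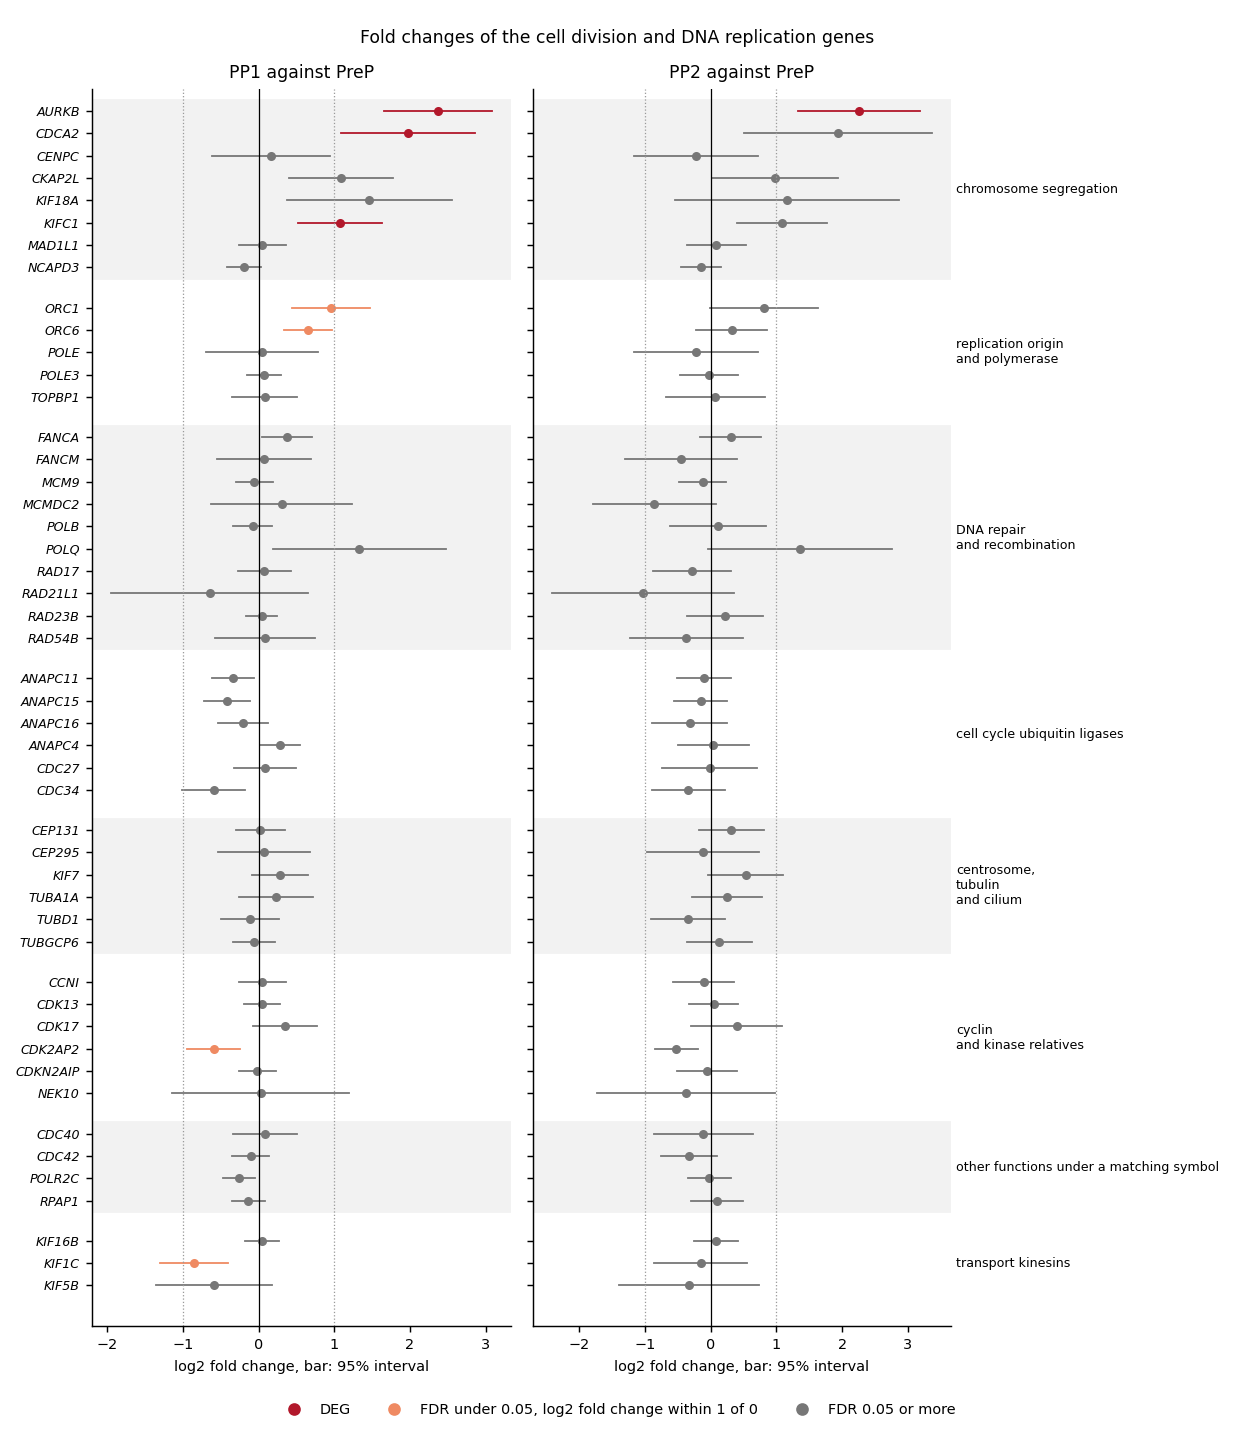
Log2 fold changes of the genes at PP1 (left) and PP2 (right) against PreP on the horizontal axis, with bars for the 95% interval and the genes grouped by role on the vertical axis. Red points are DEGs, orange points have an FDR under 0.05 without passing the fold change threshold, and grey points have an FDR of 0.05 or more. The red points, AURKB, CDCA2 and KIFC1 at PP1 and AURKB at PP2, lie in the chromosome segregation group.

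The 49 genes fall into 8 groups by known role. The group of 8 chromosome segregation genes held all DEGs, with a median log2 fold change of 1.08 at PP1 and 1.03 at PP2. AURKB (ENSBTAG00000001717) encodes Aurora B, the kinase of the chromosomal passenger complex, which corrects the attachment of chromosomes to the spindle and is needed for cytokinesis. Its CPM at PreP had a lowest value of 0.79, a median of 1.02 and a highest value of 1.44. At PP1 these values were 1.13, 5.18 and 12.7, and at PP2 they were 1.18, 3.27 and 14.6. Of the 10 libraries at PP1, 9 lay above the highest PreP library, and the exception was that of cow B4987. At PP2, 6 of 9 libraries lay above the PreP range, and the PP2 libraries of cows B5165 and B4987, at 14.6 and 13.9 CPM, were higher than any at PP1.

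The increase of AURKB was the largest among the members. The log2 fold change was 2.37 ± 0.36 (SE) at PP1, a 5.16-fold increase with an FDR of 0.0025, and 2.25 ± 0.47 at PP2, with an FDR of 0.0098. The two-sided exact permutation test on log2 CPM gave p = 0.00021 at PP1 and p = 0.0013 at PP2. This test exchanges libraries freely and ignores that most cows gave both samples. Exact sign flips of the differences within the 8 cows gave p = 0.0078 at PP1, the smallest value they can give, and p = 0.016 at PP2. AURKB was higher than at PreP in 8 of 8 cows with both samples at PP1 and in 7 of 8 at PP2. The edgeR fit with cow as a block used only the 8 cows with both samples, so fewer libraries entered it. Its log2 fold changes were 1.96 at PP1 and 1.83 at PP2, with FDR of 0.0655 and 0.0785, so the calls were lost. The parts of the pairing and of the smaller number of libraries were not tested. Without single cows the PP2 change was lowest at 1.89 (B4987, FDR 0.0356). With limma voom and quality weights it was 1.40 with an FDR of 0.0571.

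CDCA2 (ENSBTAG00000002756) encodes Repo-Man, a protein that brings protein phosphatase 1 to chromatin at the end of mitosis. Its CPM ran from 0.23 to 1.13 at PreP, with a median of 0.49, from 0.29 to 5.62 at PP1, with a median of 2.17, and from 0.11 to 10.3 at PP2, with a median of 0.40. These are small numbers of reads, between 4 and 22 per library at PreP. At PP1 7 of 10 libraries lay above the PreP range. At PP2 the median library was below that of PreP, although the mean was 2.09 CPM against 0.53, and the 3 libraries above the PreP range were those of cows B4987 (10.3), B5165 (4.69) and B5129 (1.85 CPM).

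CDCA2 rose at PP1 by 1.97 ± 0.45 on the log2 scale, with an FDR of 0.0137 and an exact permutation p = 0.0029, and was higher in 7 of 8 cows. Without cow B5129 the value was 1.60 with an FDR of 0.0582, and with cow as a block it was 1.44 with an FDR of 0.132. At PP2 the fold change was 1.94 ± 0.73 with an FDR of 0.117, and the exact permutation p was 0.37. That value depended on which libraries entered the fit. It was 0.98 with an FDR of 0.45 without cow B4987, and 2.38 with an FDR of 0.0451 without the 4 libraries that stood apart.

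KIFC1 (ENSBTAG00000001631), a minus-end-directed kinesin that bundles spindle microtubules, ran from 3.61 to 7.36 CPM at PreP, with a median of 4.97, from 3.96 to 22.9 at PP1, with a median of 11.3, and from 3.20 to 22.7 at PP2, with a median of 10.3. The groups overlapped at their low ends, where cows B4987, B5054 and B5169 stayed within the PreP range at PP1 and cows B5169 and B5090 were lowest at PP2. KIFC1 rose at PP1 by 1.08 ± 0.28 on the log2 scale, with an FDR of 0.0285, and was higher in 6 of 8 cows. Leaving out any of cows B4886, B5064, B5090, B5102, B5129 or B5165 ended the call, with a lowest value of 0.89, and with the cow block it was 1.03 with an FDR of 0.156. At PP2 the fold change was 1.09 ± 0.35 with an FDR of 0.0657, and without the PP2 library of cow B5090 it was 1.20 with an FDR of 0.0292. It was also called without cow B5079 or B5169, with a lowest FDR of 0.0276.

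The other segregation genes that are made mainly in dividing cells are CKAP2L and KIF18A. CKAP2L (ENSBTAG00000002298), a spindle protein, had a median of 2.0 CPM at PreP, 4.20 at PP1 and 3.69 at PP2, within ranges of 0.75 to 5.60, 2.33 to 12.3 and 0.86 to 15.3. It was higher at PP1 in 8 of 8 cows, with a log2 fold change of 1.09 ± 0.35 and an FDR of 0.0636, and the cow block brought it to 1.14 with an FDR of 0.0426, past the threshold. It was also called without cow B5129 or B5169, with a lowest FDR of 0.0339. KIF18A (ENSBTAG00000002117), a kinesin that limits chromosome movements at metaphase, had 0 to 22 reads per library at PreP and a log2 fold change of 1.46 ± 0.56 at PP1, with an FDR of 0.112. At PP2 the changes of CKAP2L and KIF18A were 0.98 and 1.16, with FDR of 0.253 and 0.49, and without cow B4987 they were 0.53 and 0.12. Without cow B5064 the PP2 change of KIF18A was 1.82. CENPC at the inner kinetochore, the spindle checkpoint protein gene MAD1L1 and the condensin subunit gene NCAPD3 had log2 fold changes between -0.22 and 0.16 in both comparisons with PreP.

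**Figure D2:**
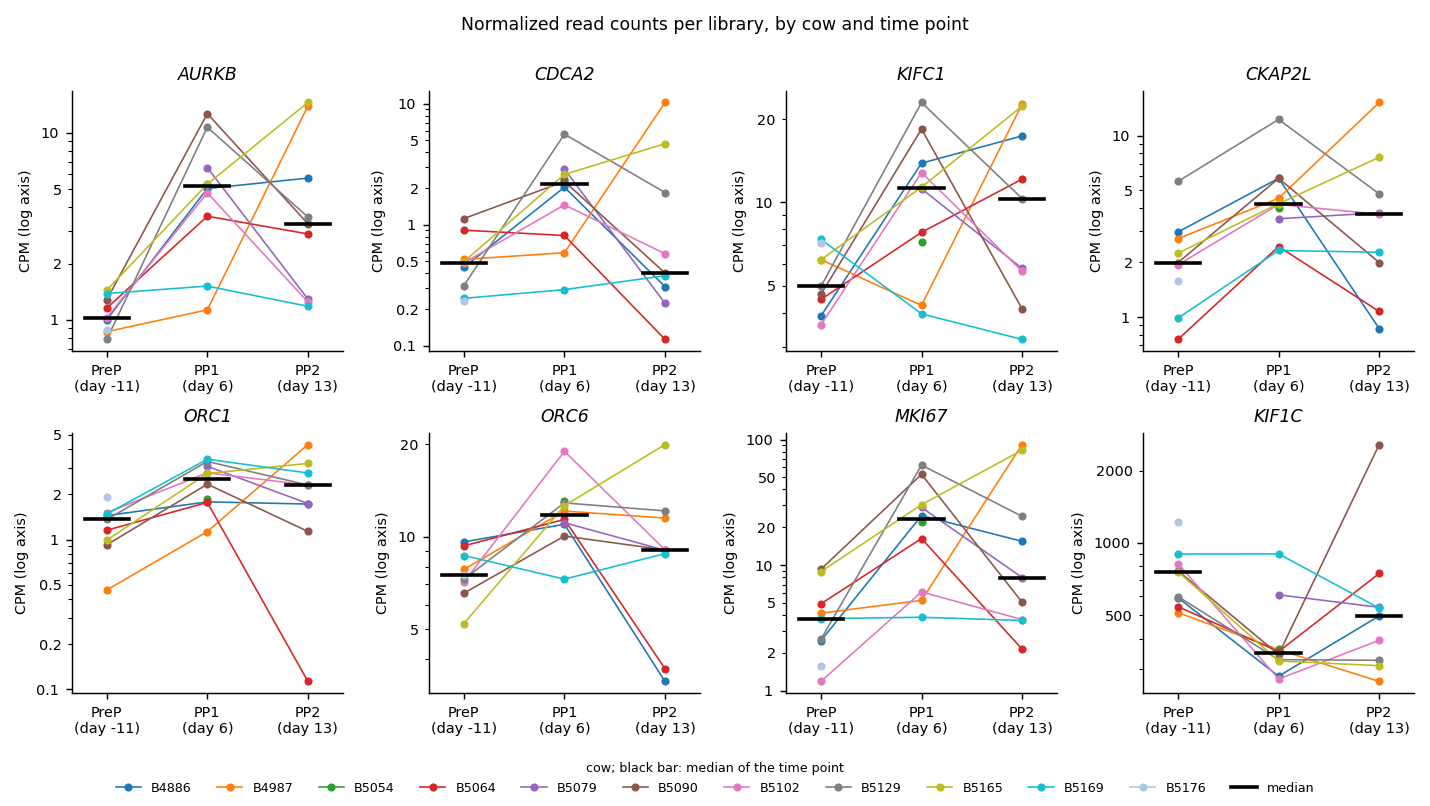
CPM per library on a log axis against the 3 time points for AURKB, CDCA2, KIFC1, CKAP2L, ORC1, ORC6, MKI67 and KIF1C, with a coloured line for each cow and a black bar for the median. AURKB rises from a narrow PreP range of 0.79 to 1.44 CPM to a PP1 median of 5.18, and at PP2 the lines spread, with cows B4987 and B5165 highest, while KIF1C falls from PreP to PP1 in all cows with both samples but B5169.

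In the group of 5 genes of replication origins and polymerases, the changes lay in the origin recognition complex. ORC6 (ENSBTAG00000001872), its smallest subunit, ran from 5.22 to 9.62 CPM at PreP and from 7.28 to 18.9 at PP1, with medians of 7.50 and 11.8, and 9 of 10 PP1 libraries lay above the PreP range. Its log2 fold change at PP1 was 0.65 ± 0.16, with an FDR of 0.0208 and an exact permutation p = 0.0004, in 7 of 8 cows. ORC1 (ENSBTAG00000002719), the largest subunit, had medians of 1.36, 2.55 and 2.31 CPM at PreP, PP1 and PP2, and changed at PP1 by 0.95 ± 0.26 with an FDR of 0.0351, in 8 of 8 cows. Both genes rose at an FDR under 0.05 without reaching the fold change threshold. Without the PreP library of cow B5176, the only one of the 4 libraries standing apart that enters this comparison, ORC1 changed by 1.05 with an FDR of 0.0301 and was then a DEG. With the cow block their FDR were 0.0728 and 0.131 for ORC1 and ORC6, so that these calls were lost. The call of ORC1 was also lost without any of cows B4886, B5054, B5064, B5090, B5102, B5129 or B5165, with FDR of up to 0.0993, and that of ORC6 without B5090, B5102, B5129 or B5165, with FDR of up to 0.0692. By FDR alone, 5 members were higher and 2 lower at PP1, where 4.9% and 1.43% of all genes were. At PP2 these counts were 1 and 0, against 3.84% and 2.51%.

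At PP2 the origin genes were less uniform. ORC6 had a lowest value of 3.39, a median of 9.06 and a highest value of 19.9 CPM, and the libraries of cows B4886 and B5064, which stood apart, lay below the PreP range. ORC1 had 0.11 CPM, 2 reads, in the PP2 library of cow B5064, against 1.13 to 4.31 in the other PP2 libraries. The log2 fold changes against PreP were 0.32 for ORC6 and 0.81 for ORC1, with FDR of 0.571 and 0.276. Without the 4 libraries that stood apart they were 0.61 and 1.25, with FDR of 0.0843 and 0.0183, so that ORC1 was then called. Without cow B5165 the change of ORC6 was 0.06, and without cow B4987 that of ORC1 was 0.53 with an FDR of 0.553. POLE (ENSBTAG00000000590), the catalytic subunit of the leading strand polymerase, had medians of 4.14, 4.11 and 2.81 CPM and fold changes of 0.04 ± 0.38 and -0.22 ± 0.48, whose sign was not stable. POLE3, an accessory subunit of the same polymerase, and TOPBP1, which takes part in origin firing and in the DNA damage response, had fold changes from -0.03 to 0.08, with no FDR under 0.05.

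None of the 11 DNA repair and recombination genes passed an FDR of 0.05 in any comparison. Of all genes tested, 4.9% were higher and 1.43% lower by FDR at PP1, and 3.84% and 2.51% at PP2. Between PP2 and PP1 the shares were 0.0%. A count of 0 among 11 genes is near these shares. POLQ (ENSBTAG00000001920), the polymerase of an error-prone end joining pathway, had the largest increase in the group, 1.33 ± 0.58 at PP1 and 1.36 ± 0.72 at PP2, with FDR of 0.163 and 0.282. At PP2 the library of cow B4987 had 3.78 CPM and the next highest 0.98, and without that cow the change was 0.77. It was a low count gene, with medians of 7, 10.5 and 7 reads at PreP, PP1 and PP2. FANCA (ENSBTAG00000001906), of the Fanconi anaemia core complex, had medians of 19.2, 23.3 and 23.4 CPM and a PP1 change of 0.37 ± 0.17 with an FDR of 0.169.

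RAD54B (ENSBTAG00000000632), a DNA translocase of homologous recombination, passed an FDR of 0.05 in no comparison. Its medians were 2.53, 3.56 and 2.41 CPM at PreP, PP1 and PP2, within ranges of 0.99 to 6.17, 0.76 to 4.75 and 0.53 to 4.22 that overlapped. The PP1 change was 0.08 with a 95% interval from -0.58 to 0.75, so a log2 fold change of 1 lay outside the interval. The PP2 change of -0.37 had a wider interval, from -1.22 to 0.48. At PP2 against PP1 the change was -0.47 with an FDR of 0.97, and the mean difference in log2 CPM within the 9 cows with both samples was -0.83, with p = 0.02 by exact sign flips and p = 0.15 by the exact permutation test that ignores the cows. The repair genes FANCM, MCM9, POLB, RAD17 and RAD23B had fold changes between -0.46 and 0.21 in both comparisons with PreP.

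RAD21L1 and MCMDC2, genes best known from meiosis, gave the largest decreases at PP2 against PreP and against PP1. RAD21L1 (ENSBTAG00000001376), a meiotic cohesin subunit, changed by -1.03 ± 0.71 at PP2 against PreP, with an FDR of 0.435, and by -0.68 without cow B5129. MCMDC2 (ENSBTAG00000000620) changed by -1.17 ± 0.45 at PP2 against PP1, with an FDR of 0.661. For that comparison the exact permutation test gave p = 0.034 and exact sign flips within cows gave p = 0.094. Both had very few reads, with medians of 5 and 4 at PreP and of 8 and 3 at PP2, and neither change passed the test across all genes.

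Among genes whose products act throughout the cell cycle or in resting cells, few differed from PreP. Few of all genes tested did so by FDR, 4.9% higher and 1.43% lower at PP1, and 3.84% and 2.51% at PP2. The 6 ubiquitin ligase genes, of which ANAPC4, ANAPC11, ANAPC15, ANAPC16 and CDC27 encode subunits of the anaphase-promoting complex and CDC34 an E2 enzyme, had log2 fold changes from -0.60 to 0.28 at PP1 and from -0.34 to 0.04 at PP2, and the smallest FDR was 0.0945. The lowest of these values at PP1, -0.60 ± 0.22 for CDC34, came with medians of 114.5 CPM at PreP and 56.3 at PP1. The 6 genes of centrosomes, tubulins and cilia, CEP131, CEP295, KIF7, TUBA1A, TUBD1 and TUBGCP6, ran from -0.11 to 0.28 at PP1 and from -0.34 to 0.53 at PP2, with no FDR under 0.05. The 4 genes with other functions under a matching symbol, the splicing factor CDC40, the small GTPase CDC42, and POLR2C and RPAP1 of the RNA polymerase II machinery, ran from -0.26 to 0.08 at PP1 and from -0.33 to 0.10 at PP2, again with no FDR under 0.05.

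The transport kinesin KIF1C and CDK2AP2, a small protein named for its association with a cyclin-dependent kinase, were the genes that fell at PP1 by FDR alone. KIF1C (ENSBTAG00000001349), which carries vesicles and other cargo along microtubules, ran from 513.3 to 1227 CPM at PreP, with a median of 759.4, and from 271.6 to 900.6 at PP1, with a median of 348.6. Of the 10 PP1 libraries 8 lay below the PreP range, and the highest, that of cow B5169, was at the level of the same cow before calving, 899.6 CPM. KIF1C fell by 0.85 on the log2 scale at PP1, with an SE of 0.23, an FDR of 0.029 and an exact permutation p = 0.0015, in 7 of 8 cows. Without cow B5169 the change was -1.02 with an FDR of 0.00081, which made it a DEG, and with the cow block it was -0.90 with an FDR of 0.0655. Without the PreP library of cow B5176 the change was -0.73 with an FDR of 0.0625, and without any of B4886, B5054, B5064, B5090, B5102, B5129 or B5165 the FDR was also over 0.05, with a largest value of 0.0796.

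At PP2 the values of KIF1C spread from 265.5 to 2568 CPM, and the highest was that of cow B5090, whose library held skeletal muscle transcripts. The next highest PP2 library had 746.5 CPM. The change against PreP was -0.15 ± 0.36 with an FDR of 0.877, and without the PP2 library of cow B5090 it was -0.71 with an FDR of 0.0661. Without all 4 libraries that stood apart it was -0.79 with an FDR of 0.0259. KIF1C also gave the largest increase at PP2 against PP1, 0.71 ± 0.39 with an FDR of 0.952, which was 0.13 without that library. The part of muscle RNA in these values was not tested. The other transport kinesins KIF5B and KIF16B had no FDR under 0.05, with changes of -0.59 and 0.05 at PP1.

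CDK2AP2 (ENSBTAG00000002121), named here after its values were seen, had medians of 52.3, 32.5 and 35.3 CPM at PreP, PP1 and PP2. It fell by 0.60 on the log2 scale at PP1, with an FDR of 0.0453, and its change at PP2 was -0.52 with an FDR of 0.0663. At PP1 8 of 10 libraries and at PP2 7 of 9 lay below the PreP range. The exact permutation p was 0.0026 at PP1 and 0.0025 at PP2, and the FDR with the cow block at PP1 was 0.0787. Of the cows, only B5079 and B5169 could be left out without the FDR at PP1 passing 0.05, and the largest value was 0.125. Without the 4 libraries that stood apart the change was -0.52 with an FDR of 0.0917 at PP1 and -0.59 with an FDR of 0.0159 at PP2. Among the other 5 cyclin and kinase relatives, CCNI, CDK13, CDK17, CDKN2AIP and NEK10, no FDR was under 0.05, and the changes at PP1 lay between -0.02 and 0.34.

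The cycling members were also summarised as a set, the 12 genes whose transcripts are known to peak in S, G2 or M phase, among them AURKB, CDCA2, CKAP2L, KIF18A, KIFC1, ORC1, ORC6, POLE, POLQ, RAD54B and FANCA. The set was chosen with earlier results of these data known, so its values are a description and no independent test. The median log2 fold change of the 12 genes was 1.01 at PP1, with 12 of 12 above 0. At PP2 it was 0.89, with 10 of 12 above 0. Without cow B4987 the median at PP2 was 0.46. Over all genes tested these medians were 0.04 and 0.10, and 53.4% and 58.9% of the fold changes were above 0. The 37 other members had medians of 0.03 and -0.11. At an unadjusted p under 0.05, 9 of the 12 were higher at PP1 and 3 at PP2, where 14.2% and 13.5% of all genes were. No cycling member was lower at that p, whereas 6 of the 37 others were at PP1 and 1 at PP2, against 10.4% and 7.84% of all genes. The summed CPM of the 12 genes ran from 48.7 to 57.3 at PreP, from 57.9 to 136.8 at PP1 and from 37.5 to 136.4 at PP2. The PreP and PP1 sums did not overlap with TMM scaling, and with scaling by total counts they did, at 40.3 to 62.2 and 51.8 to 144.5.

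The spread between cows was larger at PP2 than at PP1. The mean log2 level of the 12 genes, set to 0 at the PreP mean of each gene, ran from -0.62 to 0.40 at PreP, from 0.25 to 1.89 at PP1 with a median of 0.97, and from -0.81 to 2.21 at PP2 with a median of -0.01. From PreP to PP1 it was higher in 8 of 8 cows, and from PreP to PP2 in 5 of 8. From PP1 to PP2 it was higher in 2 of 9 cows, B4987, from 0.25 to 2.21, and B5165, from 1.18 to 1.54, and in the other 7 it was lower. Cow B4987 thus had the lowest mean of all cows at PP1 and the highest at PP2, where 10 of the 12 genes lay above all PreP libraries. Cow B5129 had the highest mean at PP1 and 1.01 at PP2. The PP2 libraries of cows B4886, B5064 and B5090, which stood apart, had the 3 lowest means at PP2, -0.27, -0.81 and -0.29.

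**Figure D3:**
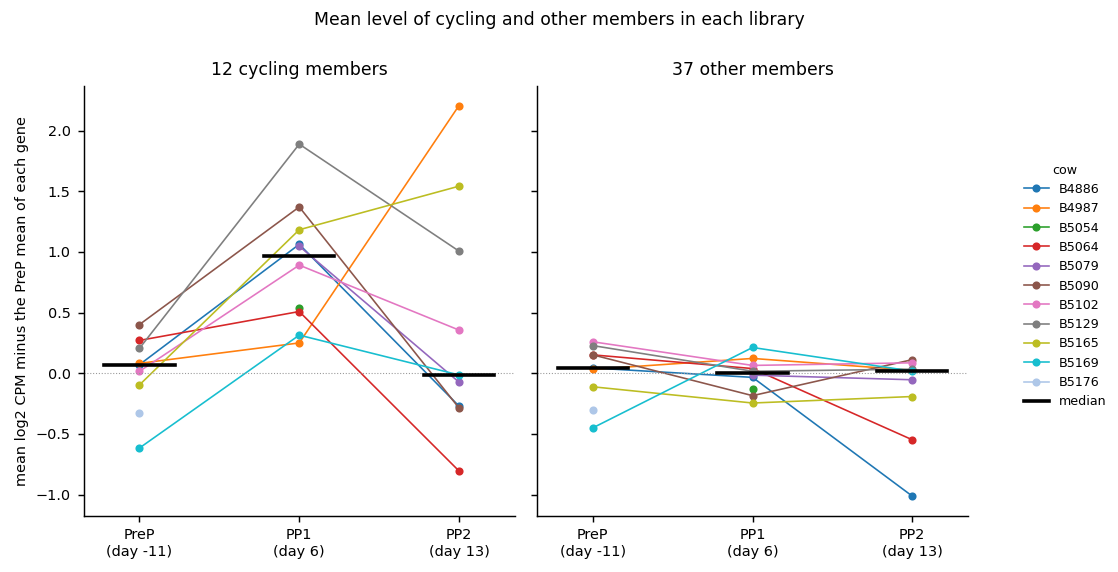
Mean over the 12 cycling members (left) and the 37 other members (right) of log2 CPM minus the PreP mean of each gene, against time point, with a coloured line for each cow and a black bar for the median. On the left all 8 lines go up from PreP to PP1 and then part, with B4987 at 2.21 and B5064 at -0.81 at PP2. On the right all PP1 values lie between -0.25 and 0.21, and the PP2 values run from -1.01 (B4886) to 0.11.

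No member had CPM at PP1 or PP2 that lay wholly outside the PreP range. Over all genes tested, 0.0325% lay wholly above the PreP range at PP1 and 0.00542% wholly below it, and at PP2 these shares were 0.0162% and 0.135%. Between PP2 and PP1, where no member was separate either, the share was 0.0054% above and 0.0% below. Direct tests of PP2 against PP1 gave wide intervals, from -1.11 to 0.88 for the log2 fold change of AURKB, from -1.40 to 1.37 for CDCA2 and from -0.76 to 0.75 for KIFC1. A change of 1 on the log2 scale lay within the interval in both directions for CDCA2 and downwards for AURKB, and outside it for KIFC1.

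Genes of the same pathway outside the 49 were taken from a list of genes known to peak in S phase and a list for G2 and M phase, in which 8 of 43 and 8 of 54 genes have an identifier here. Without the members, 12 genes remained, of which 6 were higher DEGs at PP1 and 3 at PP2, and none was lower. Among all genes tested, 3.34% and 3.52% were higher DEGs and 0.693% and 1.95% lower ones. The absence of lower DEGs among 12 genes is near these shares. The median log2 fold changes of the 12 were 0.98 at PP1 and 1.01 at PP2, against 0.04 and 0.10 over all genes tested. The proliferation marker MKI67 (ENSBTAG00000002444) ran from 1.19 to 9.27 CPM at PreP, from 3.85 to 62.6 at PP1 and from 2.15 to 91.2 at PP2, with medians of 3.75, 23.5 and 7.97. It was higher at PP1 in 8 of 8 cows and at PP2 in 5 of 8.

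MKI67 rose by 2.55 ± 0.51 on the log2 scale at PP1, with an FDR of 0.0068, and by 2.59 ± 0.69 at PP2, with an FDR of 0.0293. At PP2 the highest libraries were those of cows B4987 (91.2 CPM) and B5165 (82.3 CPM), and without cow B4987 the change was 2.05 with an FDR of 0.102. The PP2 call of MKI67 was also lost without B4886, B5129, B5165 or B5176, with FDR of up to 0.078. The mitotic spindle gene DLGAP5 rose by 2.89 at PP1 and 3.04 at PP2, with FDR of 0.0099 and 0.0499, and UHRF1, which keeps DNA methylation through replication, by 2.16 and 2.06, with FDR of 0.0025 and 0.0188. Without cow B4987 these PP2 calls were lost too, at 1.85 with an FDR of 0.218 and 1.56 with an FDR of 0.0641. That of UHRF1 was also lost without B5129 or B5165, and that of DLGAP5 without B4886, B5064, B5102, B5129, B5165 or B5176. The PP2 call of DLGAP5 also ended with no filter, at an FDR of 0.0521, and with total counts, at an FDR of 0.0591. CLSPN, a replication checkpoint adaptor, PIMREG and CKS2, a subunit of cyclin-dependent kinases, were DEGs at PP1, with changes of 1.92, 2.79 and 1.13 and FDR of 0.0097, 0.0438 and 0.0308. Without any of B4886, B5054, B5064, B5102, B5129, B5165 or B5176 the FDR of PIMREG was over 0.05 (largest 0.137), and without B5064, B5090, B5102, B5129 or B5165 that of CKS2 (largest 0.113). Leaving out only the library of B5176 is, at PP1, the same as leaving out the 4 libraries that stood apart, and the FDR of PIMREG was then 0.0754. At PP2 the FDR of the same genes were 0.0978, 0.0575 and 0.157. CLSPN was called at PP2 without the 4 libraries, at 1.81 with an FDR of 0.0272, and without cow B4987 it was 0.92 with an FDR of 0.314. PIMREG was called at PP2 without cow B5079, B5090 or B5169, with a lowest FDR of 0.0233, and without the PP2 library of B5090 alone, with an FDR of 0.0397. Without cow B4987 the PP2 change of CKS2 was 0.54, against 1.16. With cow as a block, none of these 12 genes was called at PP1 or PP2, and the FDR of MKI67 was 0.0662 and 0.256. With limma voom none of the 3 was called at PP2. FEN1, SLBP, ATAD2, TIPIN and G2E3 had changes between -0.09 and 0.83 at PP1, with no FDR under 0.05.

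Among the 49 genes, those most like MKI67 over the 28 libraries were AURKB, CDCA2, KIFC1, POLQ and CKAP2L, with Pearson r of log2 CPM of 0.89, 0.87, 0.78, 0.70 and 0.65. These libraries share the shift between time points, and within a time point the r of AURKB was 0.64 at PreP, 0.89 at PP1 and 0.85 at PP2. Within PreP the r of KIFC1, POLQ and CKAP2L were 0.21, 0.13 and -0.14. Not all cycling members followed MKI67. FANCA and RAD54B had r of 0.20 and 0.09, below the 0.35 of MCM9, which is not counted as cycling. ORC1 and ORC6 had r of 0.51 and 0.49 over all libraries, and of -0.57 and -0.37 within PreP. CDK2AP2 and KIF1C stood at the other end, with r of -0.69 and -0.63. These values describe the libraries, which share depth and tissue composition, and no test was made.

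Some marker genes of other cell types were higher at the same time points as the cycling members. Of 24 macrophage genes listed, CD68 and MSR1 have an identifier, and their summed CPM ran from 24.6 to 122.1 at PreP, from 45.1 to 444.3 at PP1 and from 47.8 to 305.9 at PP2. CD68 and MSR1 were higher DEGs at PP1, by 2.12 and 1.90, and CD68 at PP2, by 1.48. With the cow block the PP1 calls of CD68 and MSR1 were lost, with FDR of 0.0679 and 0.0657, and the PP2 call of CD68 was lost without B4886, B4987 or B5129, with FDR of up to 0.0731. MSR1 changed by 0.88 at PP2 with an FDR of 0.165, and by 1.22 with an FDR of 0.0094 without the 4 libraries that stood apart. Of 12 fibroblast and preadipocyte genes, LUM and PI16 have an identifier, with sums of 205.8 to 744.7, 310 to 2561 and 488.9 to 3000 CPM, and both were higher DEGs at PP1 and PP2. The PP2 call of PI16, at 2.11 with an FDR of 0.0259, was lost without the 4 libraries, at 0.84 with an FDR of 0.193. It was also lost without B4886, B5064, B5129 or B5176, with FDR of up to 0.0974, and its PP1 call without B5129, with an FDR of 0.0591. With limma voom PI16 changed by 1.12 at PP2 with an FDR of 0.071. With all 3 time points in 1 fit its FDR at PP1 was 0.0606. The PP2 change of LUM was 2.18, and 1.44 without cow B4987. With the cow block PI16 was not called at PP1 or PP2, with FDR of 0.107 and 0.19, nor LUM at PP2, with an FDR of 0.137. The library with the lowest sums at PP1 for both lists was that of cow B5169, which was also the lowest at PP1 for 5 of the 12 cycling members and in the summed CPM of the cycling members, 57.9 against 58.4 to 136.8 in the others. The same library was the highest at PP1 for ORC1 and POLE. At PP2 the libraries of cows B4886 and B5064 had fibroblast sums of 3000 and 2286 CPM, and the mean log2 difference of their cycling members from PreP was -0.27 and -0.81. That of cow B4987 had the second highest fibroblast sum, 2815 CPM, and the highest cycling mean, 2.21.

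For adipocytes the median marker levels were lower after calving. The summed CPM of PCK1 and PPARG had medians of 274.7 at PreP, 110.8 at PP1 and 93.6 at PP2, and PCK1 fell at PP2 by 2.96 on the log2 scale, with an FDR of 0.0024. At PP1 its change was -1.75 with an FDR of 0.142, and without cow B5169 it was -2.98 with an FDR of 0.0017 and was called. For the endothelial genes KDR and ESAM, 2 of 12 listed, the median sums were 391.9, 396.3 and 412.9 CPM and no FDR was under 0.05. Of the lymphocyte genes 1 of 16, CD79A, and of the neutrophil genes 1 of 9, CD177, has an identifier. CD79A had 1.52 to 7.02 CPM at PreP, 1.69 to 22.3 at PP1 and 1.60 to 36.9 at PP2, and CD177 was at 0 in every PreP library and at most 0.36 CPM after calving. The part of these cell types in the changes of the cycling members was not tested.

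**Figure D4:**
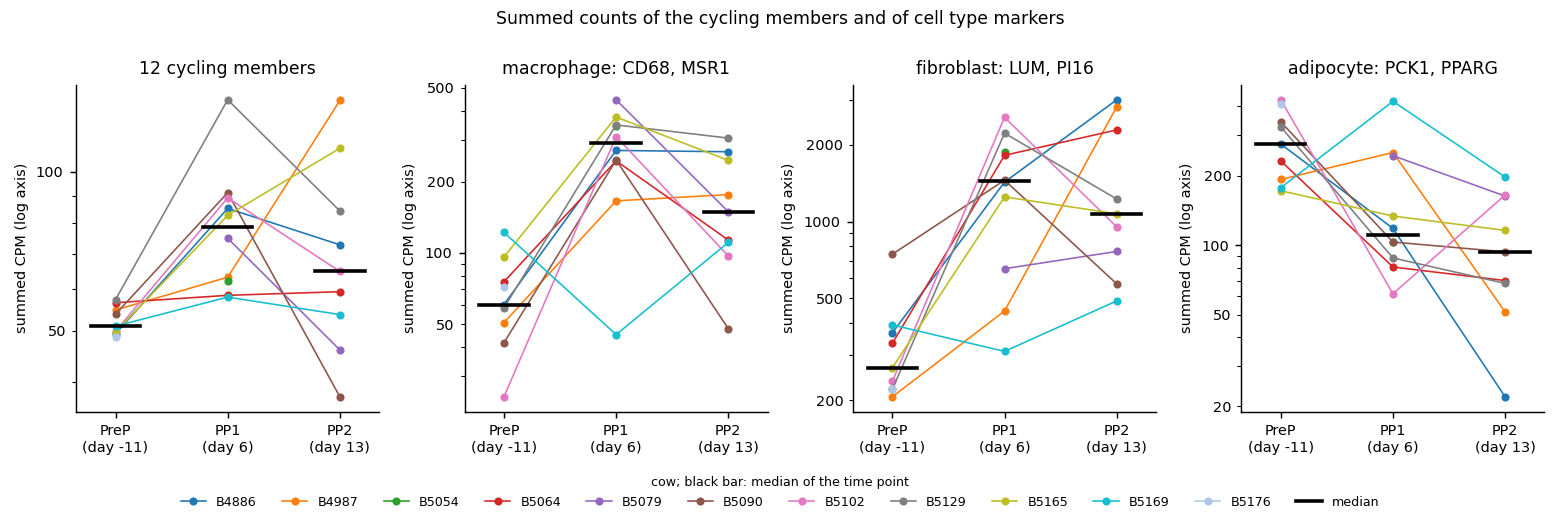
Summed CPM on a log axis against time point for the 12 cycling members and for 2 marker genes each of macrophages, fibroblasts and adipocytes, with a coloured line for each cow and a black bar for the median. The medians of the cycling, macrophage and fibroblast sums are higher at PP1 than at PreP, 78.8, 290.8 and 1440 CPM at PP1, while the adipocyte median is 110.8 there, and cow B5169 differs from the other cows in the macrophage, fibroblast and adipocyte sums.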

How the data were processed

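RNA-seq of 28 subcutaneous AT libraries was analysed. The authors mapped filtered reads to bosTau7 with HISAT2 2.1.0, counted reads per Ensembl gene with HTSeq 0.6.1 and deposited raw counts. Strandedness, annotation release, the handling of multi-mapped reads and sequencing batches are not given in the sources used here. All 28 columns were used and 0 were left out.

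Symbols came from a shortened copy of the supplementary table that pairs identifiers with symbols, so a listed gene without an identifier here can still be in the count tables. The members, groups and lists were chosen with earlier results of these data known. Tests ran in R 4.3.3 with edgeR 4.0.16. For every 2 time points, a separate quasi-likelihood fit with TMM factors and no cow term took the genes that reached 3 reads in 1 or more of its libraries. Benjamini-Hochberg adjustment covered all of these genes, and DEGs are defined by FDR and fold change in the results. Positive values are higher at the later time point. For a self-test, 200 genes were given a known change in simulated counts. A log2 change of 1 was recovered for 113 of them at PP1 against PreP. It was recovered for 21 at PP2 against PreP and for 34 at PP2 against PP1. For a change of 2, these numbers were 195, 186 and 175. False calls numbered 5, 1 and 0 at a change of 1, and 7, 15 and 9 at a change of 2. Log2 CPM had a prior count of 1. Exact permutation tests of single genes were two-sided and ignored the cows, and exact sign flips within cows were added after seeing the data.

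Certain genes are not reported here, although counts and medians over the lists include them. Otherwise, genes named in full were the 12 cycling members, DEGs, the largest increase and decrease of each comparison, MKI67, list genes that were DEGs and the 5 members most like MKI67. Libraries of the same cow are paired by animal. Residuals from the time point means correlated with a mean r of 0.098 within cows against -0.0094 between cows for PP1 and PreP, 0.017 against 0.00048 for PP2 and PreP, and 0.10 against -0.010 for PP2 and PP1. Alternatives were filterByExpr or no filter, RLE size factors, total counts, a likelihood ratio test in edgeR, DESeq2 1.42.0, voom with quality weights in limma 3.58.1, all 3 time points in 1 fit, a cow block, no fold change threshold, a prior count of 0.25, each cow left out, the PP2 library of cow B5090 left out and, chosen after seeing the data, the 4 libraries that stand apart left out. The cow block took only the cows with samples at both time points compared. Depth, 15293154 to 22284884 counts per library, leaves genes of a few reads imprecise. Promoter motifs were not analysed here.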

Additional observations from a re-analysis of the deposited data

Results flagged for a closer look

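Dixon's test on log2 CPM was applied to the 14 named members and to the mean of the cycling members at each time point, 45 results in all. It marked 3, where chance marks about 2.25. At PP2, KIF1C was 11.3 in the library of cow B5090, with the next library at 9.54. ORC1 was -2.60 at PP2 in the library of cow B5064, which held 2 reads of it, with the next lowest library at 0.24. RAD54B was -0.30 at PP1 in the library of cow B5054, with the next lowest at 0.95. The causes were not tested.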

How the results depend on the processing

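The count of higher members at PP1, 3 as reported, was 6 with limma voom, 1 with all 3 time points in 1 fit (AURKB), 5 with no threshold on the fold change, 4 without the 4 libraries that stand apart (ORC1 in addition) and between 2 and 4 without single cows. That of lower members, 0 as reported, was 2 with no threshold and between 0 and 1 without single cows. At PP2 the count of higher members, 1 as reported, was 2 with the likelihood ratio test, 3 with DESeq2, 2 without the PP2 library of cow B5090, 3 without those 4 libraries (AURKB, CDCA2 and ORC1) and between 1 and 2 without single cows. With limma voom it was 1 as well, but the gene was ORC1 and not AURKB. Cow as a replicate block pairs the samples of an animal and leaves out cows without both. The counts were then 1 (CKAP2L) at PP1 and 0 at PP2. Among the genes described in full and the 7 marker genes with a call, the block changed no call other than those given beside the results and those of PYGM (0.57) and LMOD2 (-0.063) at PP2. In the comparisons with PreP, exact sign flips within cows, compared with the exact permutation test that ignores them, brought KIFC1 to p = 0.062 at PP1 and at PP2 and FANCA to p = 0.047 at PP1, and left the other named members tested on the same side of 0.05. The genes outside the members with a call, 6 at PP1 and 3 at PP2, were 0 and 0 with the block, 3 at PP1 with all time points in 1 fit, 5 at PP2 with DESeq2, 0 at PP2 with limma voom, 5 at PP1 and 4 at PP2 without the 4 libraries, and between 4 and 6 at PP1 and between 0 and 4 at PP2 without single cows. The medians of the cycling members kept their sign under every alternative at PP1 (0.90 to 1.07) and PP2 (0.46 to 1.21).

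The sign of some changes turned, among them that of KIF1C between PP2 and PP1 from 0.71 and that of MCMDC2 at PP1 from 0.31. At PP1 these were MCMDC2 with limma voom (-0.18), POLE with limma voom (-0.24) and the block (-0.21), RAD54B with limma voom (-0.065) and without the 4 libraries (-0.011), and without single cows POLE (-0.26 to 0.21) and RAD54B (-0.075 to 0.30). At PP2 it was POLE, without the 4 libraries (0.12) and without single cows (-0.75 to 0.045). Between PP2 and PP1 they were AURKB (0.068) and KIF1C (-0.062) without the 4 libraries, and AURKB without single cows (-0.57 to 0.18). The PP2 changes of the muscle genes PYGM and LMOD2, 8.55 and 9.70, turned with DESeq2 (-0.13 and -1.16), limma voom (-0.11 and -0.82), without the 4 libraries (-0.36 and -1.49), without the PP2 library of cow B5090 (-0.17 and -1.13) and without single cows (-0.19 to 8.83 and -1.25 to 10.46, lowest without B5090). The causes were not tested. Few reads limit KIF18A, POLQ, CDCA2, RAD21L1 and MCMDC2, and the wide spread at PP2 limits that time point.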
